A study of Mus musculus with 3 samples.

Results

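The 30 genes described here encode the contractile apparatus of smooth muscle, actin-binding proteins shared with other cells, surface and signalling proteins of pericytes, and the transcriptional regulators of this programme. They were chosen by gene symbol, from 31829 gene names on the array. All 48 probes that carry these symbols were taken, of 39429 gene probes. By role, 16 genes are contractile, 9 are linked to actin in many cell types, 3 mark pericytes and other mural cells, and 2 are regulators.

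RNA came from 3 primary diffuse-type gastric cancers, set against a pool of 5 normal gastric mucosae. The tumour-bearing mice carried the alleles Cdh1loxP/loxP and Trp53loxP/loxP together with Atp4b-Cre+. In them Cre is under the promoter of Atp4b, a proton pump subunit gene of parietal cells, so the deletion is directed to that lineage. The mice that gave the pool carried the same pair of floxed alleles but were Atp4b-Cre-, and all mice were 12 months old. The stroma of the normal mucosae was stripped off mechanically in 30 mM EDTA-2Na, a treatment the labels do not give for the tumours. Every array carried a different tumour, labelled red with Cy5, and an aliquot of the pool, labelled green with Cy3. The pool is therefore 1 sample, and variation among normal mice does not enter any test below.

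Smooth muscle cells contract when myosin light chain kinase phosphorylates the myosin regulatory light chain and myosin pulls on actin filaments. These filaments are anchored through alpha-actinin and filamin. Transcription of many contractile genes depends on serum response factor, SRF, which binds the CArG box in promoters and works with the coactivator myocardin in smooth muscle. Activated fibroblasts, called myofibroblasts, take up part of the same programme, above all smooth muscle actin, and pericytes around capillaries share it too. In the normal stomach this RNA comes from the muscle layers, the thin muscle of the mucosa and vessel walls. The arrays do not tell which of these cells carried it.

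The arrays held 43020 gene spots each, of which 64.0% to 66.8% were well above background in red and 52.5% to 54.2% in green, and no spot was saturated. Testing was limited to probes whose red signals, or whose green signals, all 3 lay well above background, and 24163 probes of 19401 genes met this. Cdh1, which encodes E-cadherin, had log2 ratios of tumour over pool of -4.62, -3.27 and -4.83 in tumours 1, 2 and 3 (adjusted p = 0.00193, limma). Trp53, which encodes p53, had ratios of -0.12, -0.12 and -0.38 (adjusted p = 0.153, limma). Its probe was dim, with log2 signals of 6.54, 6.48 and 6.21 in the tumours and 6.60 to 6.66 in the pool. The lowest detected pool signals of the arrays were 6.08 to 6.12, so these ratios do not show that Trp53 RNA was unchanged. Whether either probe lies in the floxed part was not analysed here. All 5 genes of a parietal cell list were lower in the tumours, with a median log2 ratio of -6.83. Of this list, Gif should not be read as a parietal cell marker in the mouse, nor Cckbr as marking parietal cells alone. Cckbr was well above background on 1 of the 3 tumour channels.

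A gene was called when its adjusted p was under 0.05 in limma and its mean ratio reached 2-fold, with each gene read from its brightest tested probe. Of the 29 member genes with a tested probe, 11 were higher in the tumours, against a background of 9.34% of all tested genes (19.0% were called in either direction). They were Acta2, Actg2, Tagln and Des among the contractile genes, Cnn2, Cald1, Flna, Tpm2, Actn1 and Myl9 among the broadly expressed actin-linked genes, and the pericyte gene Mcam. None was lower by its brightest probe, against 9.70% of all genes. At any fold, 16 members had an adjusted p under 0.05, against 48.0% of all genes. The median log2 ratio of the members was 0.87 and that of all tested genes was 0.05. In bulk tissue, more cells of a type and more RNA per cell cannot be told apart, nor can a gain in the tumours from the removal of stroma from the pool.

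The 3 tumours differed. Tumour 2 had the highest ratio of 24 of the 29 members, against 30.4% of all tested genes. The lowest ratio lay in tumour 3 for 15 members, against 6990 of 19401 genes, and in tumour 1 for 13, against 30.9%. Tumour 1 was lowest for 10 of the 15 tested contractile genes and tumour 3 for 4. Tumour 3 was lowest for 7 of the 9 actin-linked genes and for all 3 pericyte and mural genes. At least 2-fold higher were 9 members in tumour 1, 19 in tumour 2 and 9 in tumour 3, against backgrounds of 11.2%, 10.6% and 9.32%. The ratios of 14 members spanned at least 2-fold between tumours, as did 10.4% of all tested genes. No tumour was measured more than once, so these differences have no test. The shares of all genes depend on the scaling: with spike-in centring 14501 of 19401 genes were highest in tumour 2 and 15222 lowest in tumour 1.

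**Figure D1:**
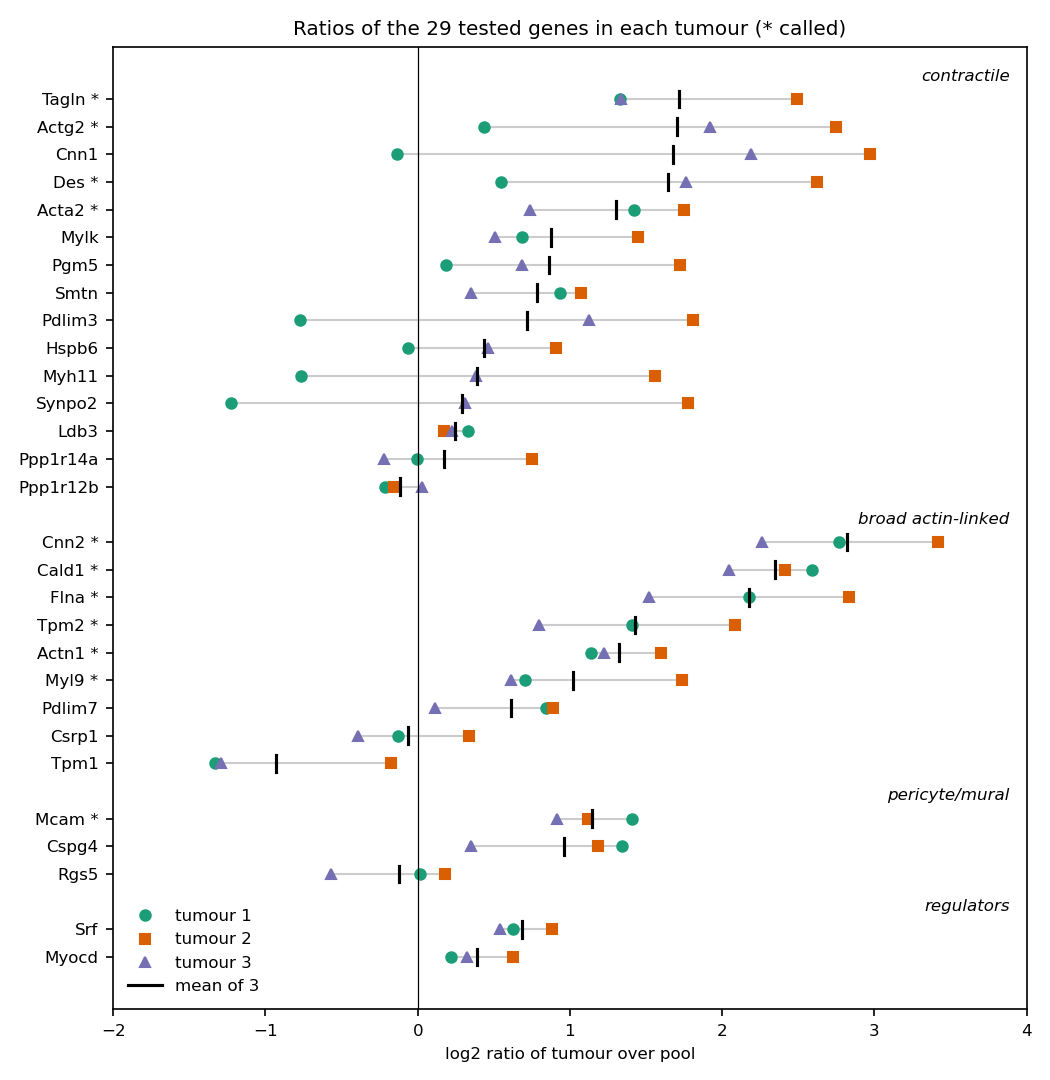
Log2 ratio of tumour over pool (horizontal axis) for the 29 tested member genes, grouped by role, with a marker for each of the 3 tumours and a bar at their mean. An asterisk marks the 11 genes called higher. Most squares (tumour 2) lie to the right, and the circles (tumour 1) of 5 contractile genes lie left of 0 while the other tumours lie right of it.

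Neither regulator was called. Srf, a MADS-box factor, had log2 ratios of 0.63, 0.88 and 0.54 in tumours 1, 2 and 3 at its brightest probe, which lies on chr17:46683788-46683795 in mm9 by the file's coordinates. All 3 tumours were above the pool and close to each other, by 0.68 ± 0.18 (SD, n = 3) on average, with an adjusted p of 0.00962 in limma but below the 2-fold limit. A further Srf probe on chr17:46685306-46685365 did not show this. It had ratios of 0.24, 0.09 and -0.34, with signs that differed between tumours and a mean ratio of -0.0031 (adjusted p = 0.987, limma). Myocd, the gene of myocardin, had ratios of 0.22, 0.63 and 0.32 (chr11:64991930-64991989, mm9). The 3 tumours were above the pool by less than 2-fold each, with a mean of 0.39 ± 0.21 (SD, n = 3) and an adjusted p of 0.0512 in limma.

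Promoter stretches of Srf and of 3 structural genes called higher are shown for the CArG box, the element that SRF binds. These 3 are shown because the box or its near form was found in them. They are RefSeq promoters of build GRCm38.p6, in capitals where a script found the box or its near form, written 5′ to 3′ on the gene's strand. The box is 10 letters long with an inner run of 6 that are all A or T, and it reads as a box on the opposite strand too. The near form has exactly 1 inner letter changed to G or C. No binding was measured in this study.
Srf, chr17:46556163-46556292, minus strand: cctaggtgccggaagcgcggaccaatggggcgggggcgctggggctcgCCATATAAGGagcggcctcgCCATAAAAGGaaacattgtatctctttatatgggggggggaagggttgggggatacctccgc
Acta2, chr19:34255374-34255503, minus strand: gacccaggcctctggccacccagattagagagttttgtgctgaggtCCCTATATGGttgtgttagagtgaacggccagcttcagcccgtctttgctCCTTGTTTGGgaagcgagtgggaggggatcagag
Cnn2, chr10:79988470-79988599, plus strand: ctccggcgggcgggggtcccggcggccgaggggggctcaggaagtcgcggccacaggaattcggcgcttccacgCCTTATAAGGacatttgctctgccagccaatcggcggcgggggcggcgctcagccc
Myl9, chr2:156775264-156775463, plus strand: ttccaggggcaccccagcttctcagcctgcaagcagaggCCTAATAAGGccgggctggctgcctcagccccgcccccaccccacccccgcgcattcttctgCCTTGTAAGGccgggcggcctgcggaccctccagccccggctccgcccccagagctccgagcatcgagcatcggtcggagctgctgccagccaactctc

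Srf had boxes from 82 to 73 and from 62 to 53 bases before the transcript start. Acta2 had the near form only, from 84 to 75 and from 34 to 25 bases before it. Cnn2 had a box from 56 to 47, and Myl9 had a box from 161 to 152 and a near form from 99 to 90 bases before it. RefSeq promoters of 300 bases, 250 before to 50 after the start, were at hand for 26 of the 30 genes. Tagln, Actg2, Myh11 and Myocd had no entry. The exact box was in 5 of the 31 promoters of these 26 genes, those of Cnn2, Myl9, Srf and Ldb3, and in 1.63% of all 32851 promoters. Ldb3, which holds 2 overlapping promoters with the same box, and Srf were not called. The near form was in 4 of the 31, those of Acta2, Myl9, Hspb6 and Pdlim3, and in 8.50% of all promoters. Hspb6 and Pdlim3 were not called. Actn1, Cald1, Des, Flna, Mcam and Tpm2, which were called higher and had an entry, held neither form. A match in letters is no measurement of a site in use.

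Among the contractile genes, 4 of 15 with a tested probe were higher in the tumours and none was lower, against 9.34% and 9.70% of all tested genes. Their median log2 ratios were 0.19 in tumour 1, 1.72 in tumour 2 and 0.51 in tumour 3. Acta2, which encodes smooth muscle alpha-actin and is also the usual myofibroblast marker, was printed in 10 spots on each array (chr19:34316060-34316119, mm9). Its log2 signals were 12.85, 13.46 and 12.21 in tumours 1, 2 and 3, against 11.43, 11.71 and 11.47 in the pool on the same arrays. Every tumour was above every pool value, tumour 2 most and tumour 3 least. Its ratios were 1.42, 1.75 and 0.74, with a spread between spots of 0.064, 0.051 and 0.072 (SD). The mean was 1.30 ± 0.52 (SD, n = 3), a 2.47-fold difference with an adjusted p of 0.0114 in limma.

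Tagln encodes transgelin, an actin cross-linking protein of early smooth muscle and myofibroblasts (chr9:45738097-45738156, mm9). In log2 units it had signals of 14.00, 15.09 and 13.84 in tumours 1, 2 and 3, against 12.67, 12.60 and 12.50 in the pool. The groups did not overlap, and tumour 2 stood above the other tumours. The ratios of 1.33, 2.49 and 1.33 gave a mean of 1.72 ± 0.67 (SD, n = 3) and an adjusted p of 0.00998 in limma.

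Actg2, Des and Cnn1 shared another pattern, in which tumours 2 and 3 were far above the pool and tumour 1 was close to it. Actg2 encodes the gamma-actin of enteric smooth muscle (chr6:83462904-83462963, mm9). Log2 signals were 10.93, 13.29 and 12.51 in tumours 1, 2 and 3, against 10.50, 10.54 and 10.59 in the pool. The groups did not overlap, but tumour 1 lay just above the pool. The ratios were 0.43, 2.75 and 1.92, with a mean of 1.70 ± 1.17 (SD, n = 3) and an adjusted p of 0.0408 in limma.

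Des encodes desmin, the intermediate filament protein of muscle cells, and was printed in 10 spots (chr1:75363404-75363629, mm9). Its log2 signals were 7.80, 10.22 and 9.22 in tumours 1, 2 and 3, against 7.25, 7.59 and 7.46 in the pool. Tumour 1 was again only a little above the pool, and the groups did not overlap. The ratios were 0.55, 2.62 and 1.76, each with a spread between spots of at most 0.131 (SD), which covers repeated spots on an array and not labelling or hybridisation. The mean ratio was 1.64 ± 1.04 (SD, n = 3), with an adjusted p of 0.0333 in limma. The calls of Actg2 and Des were lost without tumour 2 and without tumour 3.

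Cnn1, which encodes the smooth muscle calponin, had the largest spread of all members (chr9:21913058-21913117, mm9). In log2 units it had signals of 11.38, 14.46 and 13.60 in tumours 1, 2 and 3, against 11.51, 11.49 and 11.41 in the pool. Tumour 1 lay below the 3 pool values, and tumours 2 and 3 lay well above them. The ratios of -0.14, 2.97 and 2.19 put tumour 2 at 8.61 times the level of tumour 1. The mean of 1.67 ± 1.62 (SD, n = 3) exceeded 2-fold but was not called, with an adjusted p of 0.0915 in limma. Without tumour 1 the gene was called.

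Myh11, the smooth muscle myosin heavy chain, is among the most specific genes of differentiated smooth muscle (chr16:14202190-14202249, mm9). Log2 signals were 7.32, 9.86 and 8.71 in tumours 1, 2 and 3, against 8.08, 8.30 and 8.32 in the pool. Tumour 1 was below the pool and the other tumours above it. The ratios of -0.77, 1.56 and 0.38 gave a mean of 0.39 ± 1.16 (SD, n = 3), with an adjusted p of 0.514 in limma. Without tumour 2 the mean was -0.19.

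Synpo2, which encodes a synaptopodin of the muscle Z-disc, and Pdlim3, which encodes an alpha-actinin-binding protein, were ordered in the same way. Synpo2 had ratios of -1.23, 1.78 and 0.31 in tumours 1, 2 and 3 (chr3:122779459-122779518, mm9). Pdlim3 had ratios of -0.77, 1.81 and 1.13 (chr8:47004658-47004717, mm9). Neither passed the test, with adjusted p-values of 0.710 and 0.311 in limma, though Pdlim3 was called without tumour 1. Hspb6, a small heat shock protein of muscle, had the same signs at smaller size, with ratios of -0.07, 0.91 and 0.46. Cnn1, Myh11, Synpo2, Pdlim3 and Hspb6 are the 5 contractile members that were below the pool in tumour 1 and above it in tumours 2 and 3, a pattern of 4.01% of all tested genes. In tumour 1, Cnn1 and Hspb6 lay only slightly below the pool, at -0.14 and -0.07, less than the median SD between arrays of 0.199.

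**Figure D2:**
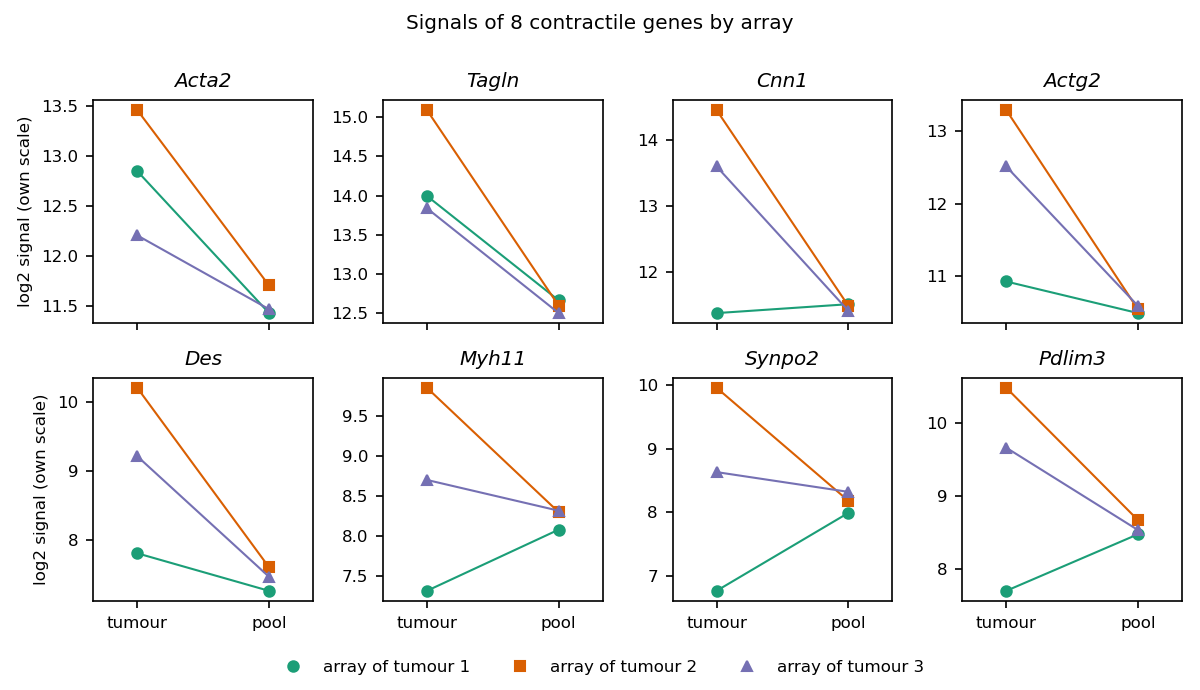
Log2 signals of 8 contractile genes in the tumour and in the pool on the same array (vertical axis, a scale of its own for each gene), joined by a line for each of the 3 arrays. The pool values lie close together, while tumour 2 is highest for all 8 genes and tumour 1 lies below the pool for Cnn1, Myh11, Synpo2 and Pdlim3.

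The other contractile genes were not called. Mylk, the gene of myosin light chain kinase, had ratios of 0.68, 1.44 and 0.51 in tumours 1, 2 and 3, and Smtn, which encodes smoothelin, had 0.93, 1.07 and 0.35. Both were above the pool in every tumour and below 2-fold on average, with adjusted p-values of 0.0294 and 0.0223 in limma. Mylk was called higher in 5 of 12 other settings and Smtn in 3 of 12, among them the one without tumour 3. Pgm5, which encodes the adhesion protein aciculin, had ratios of 0.19, 1.72 and 0.69 (adjusted p = 0.0836, limma), and it was called without tumour 1. Ppp1r14a, an inhibitor of myosin phosphatase, had ratios of -0.0058, 0.75 and -0.22, of which tumour 2 alone was above the pool. The phosphatase subunit gene Ppp1r12b and the Z-disc gene Ldb3 stayed between -0.21 and 0.33 in all tumours. Lmod1, an actin nucleator of smooth muscle, was well above background in red on 1 array and in green on 1 array, and was not tested.

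Of the 9 genes of the actin cytoskeleton that are expressed in many cell types, 6 were called higher, against 9.34% of all tested genes. Their medians were 1.14, 1.74 and 0.80 in tumours 1, 2 and 3. Cnn2 encodes the calponin of non-muscle cells and had the largest ratio of all 29 members (chr10:79457785-79457844, mm9). Its log2 signals were 10.42, 11.12 and 9.94 in tumours 1, 2 and 3, against 7.65, 7.70 and 7.68 in the pool. The groups lay far apart in all 3 pairs. The ratios of 2.77, 3.42 and 2.26 gave a mean of 2.82 ± 0.58 (SD, n = 3), a 7.05-fold difference with an adjusted p of 0.00220 in limma. The other Cnn2 probe was called as well, at 1.90 ± 0.42 (SD, n = 3).

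Cald1 encodes caldesmon, which binds actin and tropomyosin and is spliced into smooth muscle and non-muscle forms (chr6:34723839-34723898, mm9). In log2 units it had signals of 10.06, 10.15 and 9.65 in tumours 1, 2 and 3, against 7.48, 7.74 and 7.60 in the pool. The tumours were alike here, and tumour 1 had the highest ratio. The ratios of 2.59, 2.41 and 2.05 gave a mean of 2.35 ± 0.28 (SD, n = 3) and an adjusted p of 0.000996 in limma. The neighbouring probe gave 1.96 ± 0.31 (SD, n = 3) and was also called.

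Flna encodes filamin A, which cross-links actin filaments at the membrane (chrX:71468802-71468861, mm9). Log2 signals were 13.76, 14.53 and 13.20 in tumours 1, 2 and 3, against 11.59, 11.69 and 11.68 in the pool. The groups did not overlap, with tumour 2 highest. The ratios of 2.18, 2.84 and 1.52 gave a mean of 2.18 ± 0.66 (SD, n = 3) and an adjusted p of 0.00538 in limma.

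Actn1 encodes alpha-actinin 1, an actin bundler of focal adhesions (chr12:81269446-81269882, mm9). Its log2 signals were 9.26, 10.13 and 9.27 in tumours 1, 2 and 3, against 8.13, 8.53 and 8.05 in the pool. The groups did not overlap and tumours 1 and 3 were nearly equal. The ratios of 1.14, 1.60 and 1.22 gave a mean of 1.32 ± 0.25 (SD, n = 3) and an adjusted p of 0.00284 in limma.

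Myl9 encodes the regulatory light chain that the kinase phosphorylates (chr2:156607301-156607360, mm9). In log2 units it had signals of 12.97, 14.08 and 13.01 in tumours 1, 2 and 3, against 12.26, 12.34 and 12.40 in the pool. Tumour 2 stood apart, and tumours 1 and 3 lay less than 2-fold above the pool. The ratios of 0.71, 1.74 and 0.61 gave a mean of 1.02 ± 0.62 (SD, n = 3), just past the 2-fold limit, with an adjusted p of 0.0333 in limma. The call was lost without any 1 of the 3 tumours. Csrp1, which encodes a LIM protein of smooth muscle, had ratios of -0.13, 0.34 and -0.39 and was not called.

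The tropomyosins, which lie along the actin filament, did not move together. Tpm2, the beta-tropomyosin gene, had log2 signals of 11.37, 12.17 and 10.79 in tumours 1, 2 and 3, against 9.96, 10.08 and 9.99 in the pool (chr4:43532262-43532321, mm9). All tumours were above the pool. The ratios of 1.41, 2.09 and 0.80 gave a mean of 1.43 ± 0.65 (SD, n = 3) with an adjusted p of 0.0148 in limma, and a further probe gave 1.41 ± 0.69 (SD, n = 3), called as well but not without tumour 1 or without tumour 2.

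Tpm1, the alpha-tropomyosin gene, is spliced into many transcripts, and its 5 probes did not move together. Among genes with several tested probes, 13.9% had probes that differed in call, and of 9 such members these were Tpm1 and Mcam. The first 30 bases of each 60-base Tpm1 probe are shown because the probes are not all annotated to the same transcript variant. Capitals mark the run that the 2 overlapping probes share, as far as it lies within these bases. Their annotation names transcript variants 2, 5, 1, 1 and 9 in the order given, and all lie on the minus strand of chromosome 9. It also lists 4, 3, 3, 3 and 2 RefSeq transcripts for them, so a probe need not report on a single variant.
A_55_P2032192, chr9:66871166-66871225: gaaaaccttagtatgcaccagatgctggat
A_55_P2078680, chr9:66880274-66880333: ggaagaacagttaagaataatggatcagac
A_55_P2187038, chr9:66875796-66875855: ccttagggccaggcACAGACTGCTTTCTAT
A_55_P2187043, chr9:66875782-66875841: ACAGACTGCTTTCTATTGTACAGAAGCAAT
A_55_P2187053, chr9:66872131-66872190: gagggctgcctgcctggcccgtgtttccct

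The brightest Tpm1 probe, A_55_P2032192, had ratios of -1.33, -0.18 and -1.30 in tumours 1, 2 and 3. Tumours 1 and 3 were below the pool and tumour 2 was near it. The mean of -0.93 ± 0.66 (SD, n = 3) had an adjusted p of 0.0465 in limma and missed the 2-fold limit, and without tumour 2 it was called lower, while with median centring it turned to 0.27.

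Probe A_55_P2078680 was lower in every tumour. Log2 signals were 9.05, 9.80 and 9.37 in tumours 1, 2 and 3, against 11.07, 11.06 and 11.19 in the pool, with no overlap. The ratios of -2.03, -1.26 and -1.82 gave a mean of -1.70 ± 0.40 (SD, n = 3) and an adjusted p of 0.00337 in limma. It is the only member probe called lower, against 9.12% of all tested probes, while 14 member probes were called higher, against 8.44%. The call held in 11 of 12 other settings, the exception being median centring over all gene spots.

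Probes A_55_P2187038 and A_55_P2187043 share a run of 46 bases and gave nearly the same values. Their ratios were -0.98, -0.02 and 0.83, and -1.09, 0.02 and 0.86, in tumours 1, 2 and 3. Tumour 1 was below the pool, tumour 2 at its level and tumour 3 above it, and neither probe was called (adjusted p = 0.907 and 0.895, limma). Probe A_55_P2187053 stayed near the pool, with ratios of 0.14, 0.05 and -0.35.

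**Figure D3:**
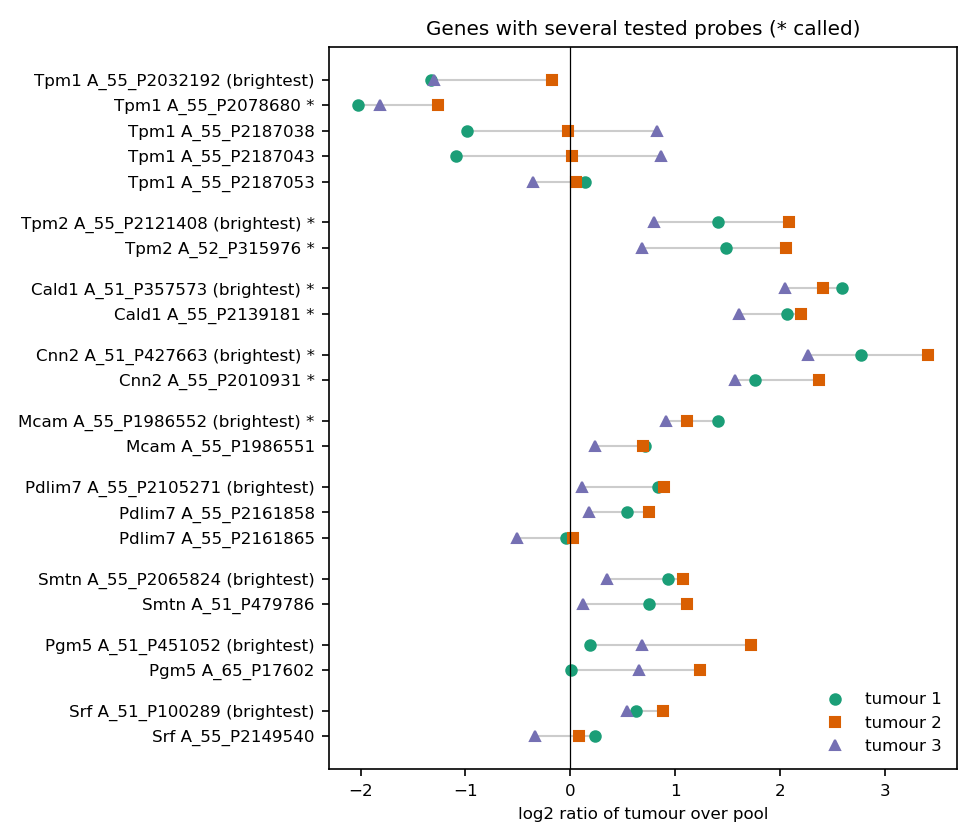
Log2 ratio of tumour over pool (horizontal axis) for each tested probe of the 9 member genes with several tested probes, with a marker for each of the 3 tumours. An asterisk marks a called probe. Both probes of Tpm2, Cald1 and Cnn2 lie on the right, while the 5 Tpm1 probes run from -2.03 to 0.86.

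Pdlim7, which encodes an actin-linked adaptor, had ratios of 0.84, 0.89 and 0.11 in tumours 1, 2 and 3 at its brightest probe (chr13:55599777-55599836, mm9). All were above the pool, with a mean of 0.62 ± 0.43 (SD, n = 3) and an adjusted p of 0.0547 in limma. A probe nearby gave 0.54, 0.75 and 0.18, whereas a probe designed on another transcript gave -0.04, 0.03 and -0.51. None of these 3 probes was called.

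Of the 3 pericyte and mural genes, Mcam was called. It encodes the adhesion molecule CD146 of pericytes, endothelium and smooth muscle (chr9:43950664-43950723, mm9). Its log2 signals were 14.20, 13.35 and 12.80 in tumours 1, 2 and 3, against 12.79, 12.23 and 11.89 in the pool. The pool value itself differed between arrays here, with an SD of 0.456 against a median of 0.0687 over probes, and the lowest tumour was barely above the highest pool value. The ratios of 1.41, 1.12 and 0.92 gave a mean of 1.15 ± 0.25 (SD, n = 3), with an adjusted p of 0.00399 in limma. A further Mcam probe, nowhere well above background in the pool, was tested through the tumour channel alone. It had ratios of 0.72, 0.70 and 0.24, was at least 1.41-fold higher in the tumours and was not called, and its mean ratio ran from -0.36 to 2.76 over 10 other settings. Such a bound uses, in place of the pool signal, the lowest detected pool-channel signal of the array wherever that is higher.

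Cspg4 encodes the proteoglycan NG2 of pericytes and other cells, and had ratios of 1.34, 1.18 and 0.35 in tumours 1, 2 and 3 (chr9:56746627-56746686, mm9). All tumours were above the pool, tumour 3 least. The mean of 0.96 ± 0.53 (SD, n = 3) had an adjusted p of 0.0272 in limma but stayed short of 2-fold. The gene was called higher in 6 of 12 other settings, among them the one without tumour 3. Rgs5, a regulator of G protein signalling that is characteristic of pericytes, was not called (chr1:171623021-171623080, mm9). Its ratios were 0.02, 0.18 and -0.57, with an adjusted p of 0.586 in limma and signs that differed between tumours.

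Of 8 pericyte genes outside the member list, 6 were higher and 1 was lower, against 9.34% and 9.70% of all tested genes. Their median log2 ratio was 1.39. Cd248, which encodes endosialin, was 2.79 ± 0.72 (SD, n = 3) and Pdgfrb, the receptor through which pericytes are recruited, was 1.84 ± 0.67 (SD, n = 3). Anpep, which encodes an aminopeptidase of pericytes and of epithelium, was -1.70 ± 0.23 (SD, n = 3). Their adjusted p-values were 0.00356, 0.00836 and 0.00152 in limma. Heyl, 1 of the 6, was nowhere well above background in the pool and was tested through the tumour channel alone. Fibroblasts express Cd248 and Pdgfrb too.

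Of 26 smooth muscle genes outside the member list, 19 were tested, 1 was higher and 2 were lower, shares near the 9.34% and 9.70% of all tested genes, and their median log2 ratio was 0.41. Hspb8, a small heat shock protein, was higher, with ratios of 1.80, 1.95 and 1.36 in tumours 1, 2 and 3. Fhl1, a LIM protein of muscle, was lower, with ratios of -1.38, -1.11 and -1.41. Chrm3, the muscarinic receptor that drives smooth muscle contraction and is also present on gastric epithelium, was lower too, with ratios of -1.10, -1.15 and -1.13, and was well above background on 1 of the 3 tumour channels. In limma their adjusted p-values were 0.00222, 0.00196 and 0.00157.

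The list of 9 SRF cofactors and regulators had 8 tested genes, with 2 lower and none higher and a median of 0.11. Of all tested genes, 9.70% were lower and 9.34% higher. Klf4, a repressor of smooth muscle genes in cultured cells and a factor of gastric epithelium, was -2.85 ± 0.32 (SD, n = 3) and Gata6 was -1.42 ± 0.37 (SD, n = 3). Their adjusted p-values were 0.000865 and 0.00470 in limma. Of 13 general actin cytoskeleton genes, 1 was higher and 1 lower, shares near those of all tested genes, with a median of 0.49. Flnc, the muscle filamin, was 1.65 ± 0.28 (SD, n = 3) and Cnn3, the acidic calponin, was -1.78 ± 0.40 (SD, n = 3). In limma their adjusted p-values were 0.00210 and 0.00308. The calponin genes thus covered 2.82 for Cnn2, 1.67 for Cnn1 (not called) and -1.78 for Cnn3, each measured at its own probe.

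Most markers of other stromal cells were also above the pool in the tumours. Their order among tumours was not that of the contractile genes. Of 10 fibroblast markers, 8 were higher and none was lower, against 9.34% and 9.70% of all tested genes. Their medians were 3.25, 2.90 and 1.50 in tumours 1, 2 and 3. The examples with the largest ratios were Lum, Fap and Col1a1, at 3.62, 3.20 and 3.20, genes of a matrix proteoglycan, a membrane protease and collagen. Fibroblast signals summed to between 49241 and 159739 in the tumours, against 17007 to 18776 in the pool. Of 8 endothelial markers, 3 were called higher and none was called lower, against the same shares, with medians of 1.24, 0.99 and 0.59. The called genes were Vwf at 2.79, Cldn5 at 2.49 and Cdh5 at 1.66. Of the 8, 7 were above the pool in every tumour, though Pecam1 and Tek only slightly, at 0.22 and 0.25. Kdr was below the pool in every tumour, with ratios of -0.49, -1.09 and -0.69 (adjusted p = 0.0162, limma), short of 2-fold. Endothelial signals summed to between 4494 and 8266 in the tumours, against 3665 to 3833 in the pool.

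Contractile signals summed to between 32158 and 89010 in the tumours, against 16272 to 17838 in the pool. Fibroblast, endothelial and further pericyte markers were thus highest by median in tumour 1, where the contractile genes had their lowest median, although with spike-in centring their medians were highest in tumour 2. The part of these cells in the values of Acta2, Tagln or the actin-linked genes was not tested.

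Of 11 skeletal muscle markers, 5 were tested, and their medians of 0.13, 1.07 and 2.30 in tumours 1, 2 and 3 are the values of a single gene, Tnnt3. Tnnt3 and Actn3 were nowhere well above background in the pool and were tested through the tumour channel alone. Over the 2 markers well above background in both channels, Acta1 and Tnni2, the medians were 0.16, 1.10 and 1.60. With Agilent's processed signals of all 5 they were 1.36, 3.23 and 4.15. The markers did not move together. Tnni2 stayed near the pool, with ratios of -0.27, 0.23 and 0.04 in tumours 1, 2 and 3 (adjusted p = 0.988, limma). Actn3 had ratios of 0.30, 0.14 and 0.51 and was not called. Acta1, the skeletal muscle alpha-actin, was higher. Its ratios were 0.58, 1.96 and 3.16 in tumours 1, 2 and 3 (adjusted p = 0.0388, limma). Tnnc2, a fast troponin gene, had ratios of -0.0022, 2.31 and 3.42 and was not called (adjusted p = 0.0806, limma). The markers Ckm, Mb, Myh1, Myh2, Myh4 and Mylpf were not tested, and no pool channel had any of them well above background. Skeletal muscle signals summed to between 3085 and 7999 in the tumours, against 3554 to 4075 in the pool. Desmin and some actin-linked genes are expressed in skeletal muscle as well, and its part in their values was not tested.

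**Figure D4:**
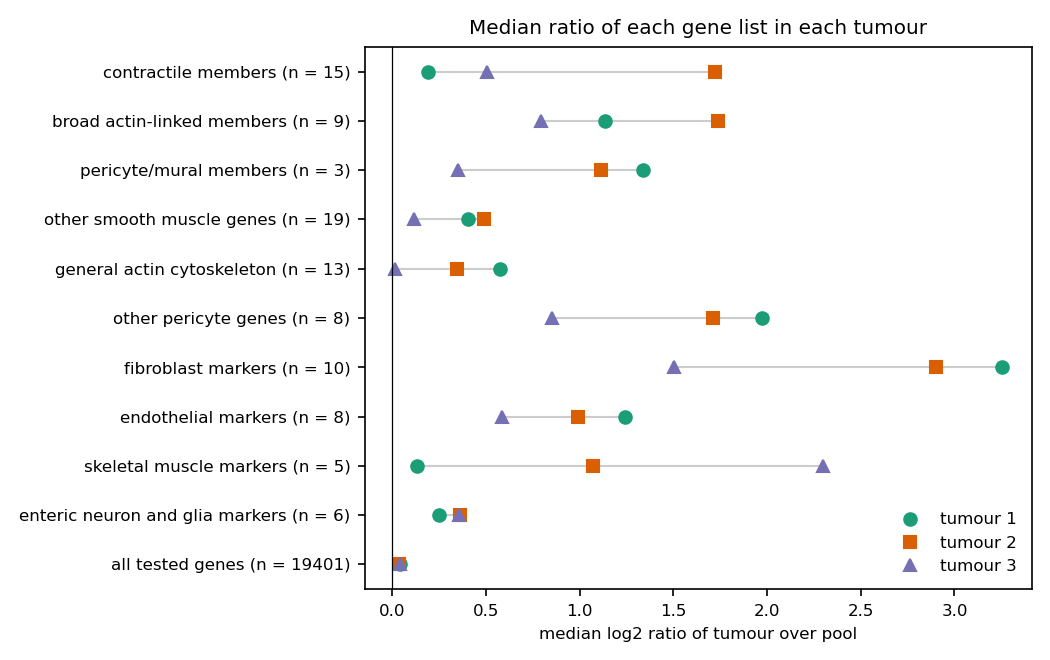
Median log2 ratio of tumour over pool (horizontal axis) of each gene list in each of the 3 tumours, with n the number of tested genes. The contractile median is highest in tumour 2 (1.72), the fibroblast median in tumour 1 (3.25) and the skeletal muscle median in tumour 3 (2.30), while all tested genes lie at 0.04 in every tumour. With median or spike-in centring the fibroblast median is highest in tumour 2.

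Among the contractile genes the tumours kept their order when the data were scaled in other ways. With other scalings, background corrections and probe filters, the contractile median ranged from -0.10 to 0.93 in tumour 1, from 1.69 to 2.90 in tumour 2 and from 0.47 to 1.54 in tumour 3, with tumour 2 highest and tumour 1 lowest each time. Centring on spike-in RNA shifted the arrays themselves, to medians of all genes of -0.38, 0.37 and 0.0098. On that scale 15 of 15 contractile genes were highest in tumour 2, against 14501 of 19401 tested genes. Lowest in tumour 1 were 13 of them, against 15222 of all tested genes. The contractile medians were -0.10, 2.39 and 0.79. The fibroblast median was highest in tumour 2, at 3.93, instead of tumour 1, at 3.30. With median centring it was highest in tumour 2 as well, at 4.44, against 4.33 in tumour 1.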

How the data were processed

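The members and gene lists were chosen with earlier results of these data known, and so were the tests and the rule for named genes. That rule names every member by role, up to 3 called genes with the largest absolute ratio (otherwise the brightest) of each other list, and Cdh1 and Trp53. The 3 arrays are 2-colour Agilent arrays on 1 slide with 1 scan and 1 dye orientation, made from 250 ng of total RNA with an integrity number above 7, per the labels. The authors deposited spot intensity values from Agilent Feature Extraction, of which the submitters' processing notes name version 9.5.3 and the file headers version 10.7.3.1. Per the file headers, the log10 ratio sets red over green. A value table that the authors also deposited gives log2 ratios, within 0.01 of the scanner's at 99.8% of filled probes on each array, with medians of -0.15, -0.13 and -0.11; 48.3% to 49.6% of its probes are blank.

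From the mean and background intensity values, signals were corrected with normexp (offset 50) and then loess-normalised (limma 3.58.1, R 4.3.3), giving control spots no weight. Those spots and the 157, 167 and 190 spots flagged as outliers were left out, and spots of a probe were averaged. A two-sided limma test (lmFit, eBayes) set the mean ratio against 0, and p-values were Benjamini-Hochberg adjusted across all 24163 tested probes. The prior had 2.44 degrees of freedom. Channel signals were made comparable between arrays by Aquantile, and levels are compared only within a probe, save for the signals summed over a list, which its brightest probes dominate. The dyes were not swapped, so dye bias is not balanced. The number of arrays limits the precision: the median SD between arrays was 0.199 for the ratio, 0.208 for the tumour signal and 0.0687 for the pool signal. The labels call the tumours biological replicates. Array coordinates are mm9. The fit was tested on simulated data. Alternatives were other backgrounds, scalings, probe filters, probe choices and leaving out each tumour.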

Additional observations from a re-analysis of the deposited data

How the results depend on the processing

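Of 14 alternatives, every one in which they were tested kept Acta2, Actn1, Cald1, Cnn2, Flna, Tagln and Tpm2 called higher by the probe that stands for the gene. The number of members called higher was 20 with median centring over all gene spots and 19 with spike-in centring, which pooled all variances, instead of 11. Of all 19401 tested genes, 7735 were called higher with median centring and 3153 with spike-in centring, instead of 1813. The number of members called higher ranged from 8 to 13 when 1 tumour was left out, 8 without replicate 2, 13 without replicate 1 and 10 without replicate 3. Members called lower ranged from 0 to 1, the 1 being Tpm1 without replicate 2, and the median ratio of members from 0.59 to 1.02. That median was 1.86 with median centring, where the median of all genes shifted by 0.72; in the authors' table it shifted by -0.14. The share of all genes called, 19.0%, was 35.1% with Agilent's processed signals, 42.7% with median centring and 27.4% with spike-in centring. It was 11.2% with no filter on dim probes, 29.6% both with an offset of 0 and in the authors' table, and 17.5% to 18.5% without 1 replicate. Higher genes were 49.1% of those called, 93.3% with median centring and 59.3% with spike-in centring. All reversals were of genes that had not been called. Csrp1 turned to 1.70 with median centring, 0.94 with spike-in centring and 0.0896 with an offset of 0, and lay between -0.26 and 0.10 with 1 replicate left out. Rgs5 turned to 0.78 with median and 0.0181 with spike-in centring and lay between -0.28 and 0.10 with 1 replicate left out, and Tpm1 turned to 0.27 with median centring. Ldb3 turned to -0.16 with processed signals and -0.53 with spike-in centring. With 1 replicate left out, Myh11 lay between -0.19 and 0.97, Ppp1r14a between -0.11 and 0.37 and Synpo2 between -0.46 and 1.04, each lowest without replicate 2. Except where samples were left out, the cause was not tested. Mcam lost its call when a gene was read as the median of its probes. Actg2 and Des lost theirs with no filter on dim probes and without replicate 2 or 3, and Myl9 with no such filter, with centring on the tested probes and without any 1 replicate. Cspg4 and Mylk gained a call with Agilent's processed signals, with an offset of 0, in the authors' table and with median and spike-in centring. No paired analysis was possible because the design has 1 group of tumours, each already set against the pool on its own array. Dim probes limit Lmod1, Ldb3 and Ppp1r12b, which lie near background, and Myocd, which is not much brighter. Over the alternatives the mean ratio of Ppp1r12b ran from -0.79 to -0.03 and that of Myocd from 0.03 to 0.79.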

Other observations

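Cell types that lie beside smooth muscle in the gastric wall gave mixed values. Of 4 markers of interstitial cells of Cajal, the pacemaker cells of gut muscle, 3 were tested. Ano1, their calcium-activated chloride channel, had log2 ratios of 1.15, 2.08 and 0.79 in tumours 1, 2 and 3 and was higher (adjusted p = 0.0190, limma), whereas Kit, their receptor tyrosine kinase, had ratios of -0.01, -1.55 and -0.93 and was not called (adjusted p = 0.0904, limma). Of 8 markers of enteric neurons and glia, 6 were tested and none was called, against 19.0% of all tested genes, with a median ratio of 0.52. The brightest, Snap25, a synaptic protein, had ratios of 0.89, 0.42 and 0.57.

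The mesothelium covers the outer gastric wall, and 2 of its 5 markers were tested. Msln, which encodes mesothelin and is also expressed by some carcinomas, had ratios of 6.91, 6.26 and 6.80 in tumours 1, 2 and 3 (adjusted p = 0.000300, limma). Wt1 was nowhere well above background in the pool and was tested through the tumour channel alone, so that its bound of at least 4.11-fold higher in the tumours is a description. Of 5 epithelial markers, 2 were higher and 2 were lower, against 9.34% and 9.70% of all tested genes. Cldn7, a tight junction claudin, was 3.94 ± 0.25 (SD, n = 3), and the keratin genes Krt8 and Krt19 were -1.56 ± 0.80 and -1.27 ± 0.78 (SD, n = 3 each).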
